A study of Homo sapiens with 11 samples.

Results

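A set of 10 enzymes that supply cells with cysteine, serine, glycine and folate-bound carbon units was read on the arrays, namely CTH, CBS, PHGDH, PSAT1, PSPH, SHMT1, SHMT2, MTHFD2, ASNS and PCK2. They were chosen by name, and every probe annotated to 1 of these symbols was taken. This gave 19 of the 42000 probes, of which 17 were detected on at least 5 of the 11 arrays (detection p under 0.01) and tested among 14542 probes. With the probe of highest mean signal standing for each gene, all 10 enzymes were among the 9653 genes tested. The arrays were Illumina HT12 beadchips, hybridised with RNA from HEK293T cells, which derive from human embryonic kidney and take up DNA readily. The cells had been transiently transfected by lipofectamine with wild type DFNA5 (wtDFNA5, 5 arrays) or with mutant DFNA5 (mutDFNA5, 6 arrays), a cDNA that lacks the exon skipped in a dominant form of hearing loss and that is known to kill transfected cells. The sample titles write KO where the characteristics write mutant DFNA5. Empty-vector cells were not on the arrays analysed here, so every change below is mutDFNA5 relative to wtDFNA5 and cannot be assigned to either construct. The treatment text of the labels places the harvest at 6 h after transfection and the extraction text places the RNA at 12 h. The study's methods call the replicates biologically independent, and 1 further wtDFNA5 sample had failed quality control.

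In transsulfuration, CBS joins homocysteine, which comes from methionine, with serine to form cystathionine, and CTH (cystathionine gamma-lyase) splits cystathionine to release cysteine, the building block that limits glutathione. Serine is made from a glycolytic intermediate by PHGDH, PSAT1 and PSPH in that order. SHMT1 in the cytosol and SHMT2 in mitochondria split serine into glycine and a carbon unit carried by folate, which MTHFD2 oxidises further in mitochondria. ASNS makes asparagine, and PCK2 makes phosphoenolpyruvate in mitochondria. ATF4, the transcription factor of the amino acid response, is known to induce several of these genes through elements in or near their promoters.

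Because several of the enzymes differed between the groups, their promoters are shown first. RefSeq start sites (GRCh38.p14) gave a window for 8 of the 10 genes, all except PSPH and SHMT2. The 250 bases before the start site are printed for the largest falls (CTH, PCK2 and PSAT1), for the enzyme that rose (MTHFD2) and for ASNS, which alone held a motif that was searched (in the window printed, and not at its other start site). Capitals mark the core of the C/EBP-ATF response element, TGATGNAA, which was searched on both strands.
CTH (chr1:70411018-70411267, plus strand): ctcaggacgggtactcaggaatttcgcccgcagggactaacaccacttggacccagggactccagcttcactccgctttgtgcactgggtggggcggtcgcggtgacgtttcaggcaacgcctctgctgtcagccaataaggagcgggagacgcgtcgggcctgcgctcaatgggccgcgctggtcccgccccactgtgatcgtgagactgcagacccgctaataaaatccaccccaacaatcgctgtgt
PCK2 (chr14:24094061-24094310, plus strand): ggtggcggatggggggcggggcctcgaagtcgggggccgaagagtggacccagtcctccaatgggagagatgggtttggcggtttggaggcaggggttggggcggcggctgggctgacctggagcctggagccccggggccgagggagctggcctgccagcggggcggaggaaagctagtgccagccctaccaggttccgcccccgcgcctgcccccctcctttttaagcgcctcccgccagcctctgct
PSAT1 (chr9:78296875-78297124, plus strand): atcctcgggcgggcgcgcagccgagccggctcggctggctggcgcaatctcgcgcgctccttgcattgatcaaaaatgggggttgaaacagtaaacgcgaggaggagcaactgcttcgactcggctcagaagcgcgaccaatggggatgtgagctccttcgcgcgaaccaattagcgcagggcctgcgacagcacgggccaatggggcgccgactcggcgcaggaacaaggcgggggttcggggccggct
MTHFD2 (chr2:74198365-74198614, plus strand): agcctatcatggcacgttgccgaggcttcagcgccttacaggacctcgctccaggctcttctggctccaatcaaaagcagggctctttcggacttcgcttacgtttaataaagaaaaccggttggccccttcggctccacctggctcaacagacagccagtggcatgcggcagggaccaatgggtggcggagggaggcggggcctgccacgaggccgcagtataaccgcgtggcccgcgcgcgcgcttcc
ASNS (chr7:97872409-97872658, minus strand): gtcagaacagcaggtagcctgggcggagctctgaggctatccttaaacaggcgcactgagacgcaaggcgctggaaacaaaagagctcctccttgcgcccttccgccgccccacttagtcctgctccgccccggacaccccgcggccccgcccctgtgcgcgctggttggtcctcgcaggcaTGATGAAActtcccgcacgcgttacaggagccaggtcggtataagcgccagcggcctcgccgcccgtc
The core occurred in 1 of the 8 genes, as TGATGAAA in ASNS, starting 68 bases before the start site. It occurred in 3.89% of the 27305 genes with such windows. The E-box CACGTG, also searched on both strands, occurred in 0 of the 8 genes and in 7.73% of all genes. The GC content of the printed windows was between 61.6% in CTH and 71.6% in PCK2. A match of letters is a description of the window alone.

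In mutDFNA5, 4 enzymes were significantly down-regulated (CTH, PCK2, PSAT1 and PHGDH), MTHFD2 was significantly up-regulated, and CBS, PSPH, SHMT1, SHMT2 and ASNS did not pass the test (limma, adjusted p under 0.05). Among all 9653 genes 8.97% were called, 4.92% lower and 4.05% higher. Log2 changes of the 10 enzymes ranged from -0.84 to 0.31 with a median of -0.21, against a median of -0.01 over all genes tested, and 8 of the 10 were below 0. The 5 enzymes called were also those in which the groups did not overlap, with 4 entirely below and 1 entirely above wtDFNA5, and over all genes 6.62% did not overlap (3.84% below and 2.78% above). At the probe level 7 of the 17 tested probes were called lower, 1 higher and 9 were not called, while 4.31% of all probes were called lower and 3.91% higher. When arrays were brought to the same median signal instead of the same distribution (median scaling), 2 enzymes were called lower (CTH and PCK2) and the median of the 10 was -0.12, while that of all genes was 0.07 and 54 of all genes were called lower and 270 higher, against 475 and 391. These counts describe enzymes that were chosen with earlier results of the same arrays known. RNA was measured in bulk, so fewer expressing cells and less RNA per cell cannot be told apart.

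**Figure D1:**
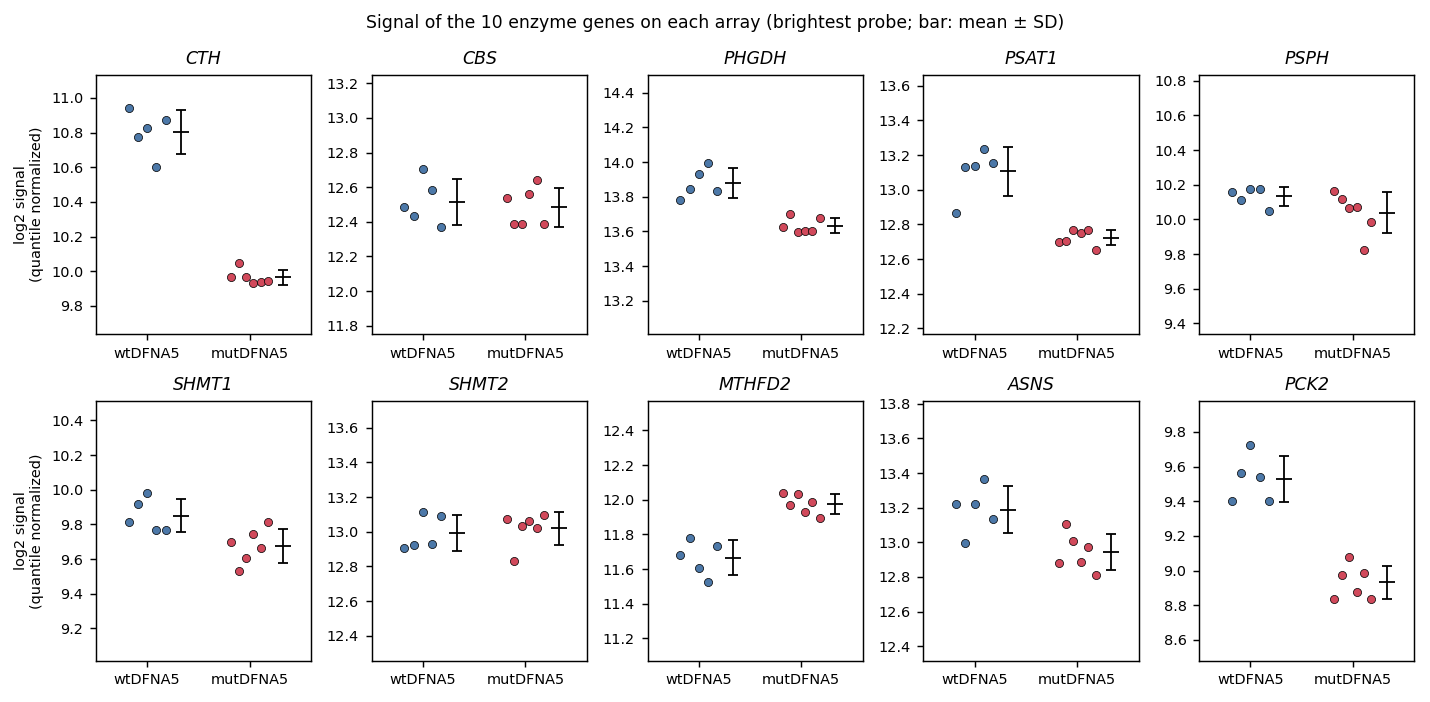
Log2 signal (quantile normalized) of the brightest probe of each enzyme on the 5 wtDFNA5 (blue) and 6 mutDFNA5 (red) arrays, with the mean and SD of each group beside the points. Each axis spans the same range of log2 units around its own gene. CTH, PHGDH, PSAT1 and PCK2 lie lower on all 6 mutDFNA5 arrays than on any wtDFNA5 array, MTHFD2 lies higher on all 6, and the groups overlap for the other 5 enzymes.

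Detection was similar in both groups. Between 14029 and 15443 probes were detected per array, which is 33.4% to 36.8%, and median log2 signals before normalization ran from 6.90 to 7.33. The transfected gene was read by a single probe, at a log2 signal of 8.02 ± 0.22 on the wtDFNA5 arrays (SD, n = 5) and of 8.05 ± 0.20 on the mutDFNA5 arrays (SD, n = 6, limma, adjusted p = 0.908). Whether this probe reads the transfected cDNA is not given in the sources used here, so it checks neither construct. Of 5 genes known from HEK293T cells, VIM, NEFM, KRT18 and CDH2 were detected and PAX2 was not, and NEFM was higher by 0.75 in mutDFNA5 (adjusted p = 8.91e-07). Its part in the results was not tested. Defining genes of blood, liver and red cells (PTPRC, CD3E, ALB and HBB) were not detected on any array. The other markers of such cells were detected. CD68 was detected with probe ILMN_2359907 on 5 wtDFNA5 and 6 mutDFNA5 arrays, and PECAM1 on 4 and 5. Their mean signals lay between 7.53 and 7.75, close to the lowest detected signal of 7.36 to 7.46. Neither was called different between the groups. Further CD68 probes were detected on 4 mutDFNA5 arrays or on none.

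CTH, the enzyme that releases cysteine, was the most strongly changed of the 10 enzymes and was read by 3 probes, each given on its own. With probe ILMN_2305112 the log2 signal was 10.94, 10.78, 10.83, 10.60 and 10.87 on the wtDFNA5 arrays (replicates 1 to 5). The 6 mutDFNA5 arrays had a lowest value of 9.93, a median of 9.95 and a highest value of 10.05. Every mutDFNA5 array was thus below every wtDFNA5 array, and the mutDFNA5 arrays lay close together. The mean decreased from 10.80 ± 0.13 (SD, n = 5) to 9.97 ± 0.04 (SD, n = 6), or 1.79-fold (95% interval of the log2 change -0.99 to -0.68, limma, adjusted p = 6.69e-08).

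The second CTH probe, ILMN_1777060, gave 8.63, 8.55, 8.59, 8.69 and 8.60 in wtDFNA5. In mutDFNA5 the lowest, median and highest values were 7.85, 7.93 and 8.16. Again the groups did not overlap. The log2 change was -0.66 (95% interval -0.81 to -0.51), or 1.58-fold lower (limma, adjusted p = 2.52e-06), and 2.07-fold lower with normexp background correction, which moved this probe more than the first (1.89-fold). The third probe, ILMN_2305116, gave 9.07, 8.78, 9.29, 8.96 and 8.99 in wtDFNA5, and 8.23, 8.48 and 8.79 as the lowest, median and highest values in mutDFNA5. Here 5 of the 6 mutDFNA5 arrays were below the wtDFNA5 range, and the sixth, replicate 2, lay just above wtDFNA5 replicate 2. It decreased by 0.54 (95% interval -0.74 to -0.34), or 1.46-fold (limma, adjusted p = 0.00112). ILMN_2305112 and ILMN_2305116 are annotated to the same RefSeq transcript and ILMN_1777060 to another transcript of the gene. All 3 calls held without each single array and under every alternative setting run, with adjusted p up to 0.0318.

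**Figure D2:**
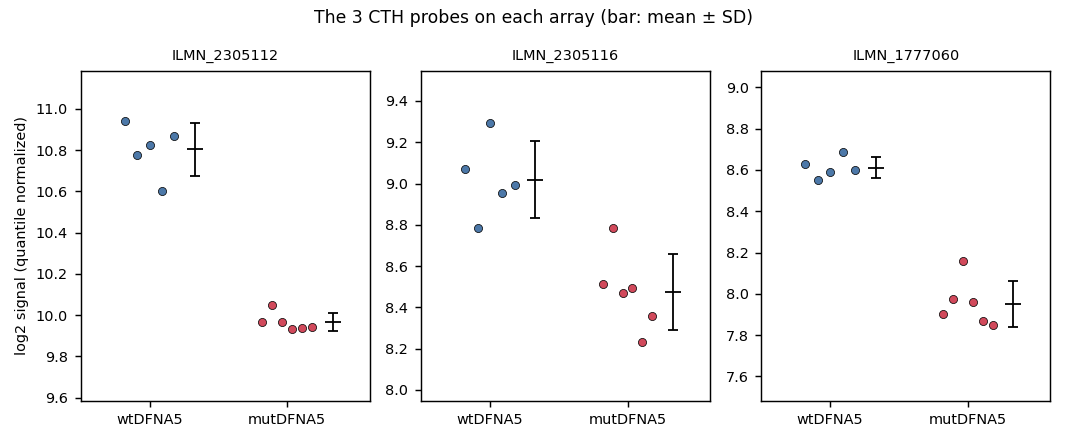
Log2 signal (quantile normalized) of the 3 CTH probes on each array, wtDFNA5 in blue (n = 5) and mutDFNA5 in red (n = 6), with mean and SD. Axes span the same range around each probe. The groups are apart for ILMN_2305112 and ILMN_1777060 and touch for ILMN_2305116, where 1 mutDFNA5 array reaches 8.79.

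Whether the CTH probes changed by unequal amounts was tested on their difference within each array. ILMN_2305112 decreased by 0.29 more than ILMN_2305116 and by 0.18 more than ILMN_1777060 on the log2 scale (two-sided exact permutation tests, p = 0.026 and p = 0.0606). After adjustment over the 9 pairs of probes of the same gene both had an adjusted p of 0.208, and no pair among the 9 passed. The second of these differences turned to 0.14 with normexp background correction, so the order of the CTH probes was not settled.

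CBS, which carries out the step before CTH, did not pass the test. Its signal was 12.48, 12.43, 12.71, 12.58 and 12.37 in wtDFNA5 and 12.38, 12.46 and 12.64 (lowest, median and highest) in mutDFNA5. All 6 mutDFNA5 arrays fell within the wtDFNA5 range. The log2 change was -0.03 with a 95% interval of -0.20 to 0.13 (limma, adjusted p = 0.853), and 0.08 under median scaling. Within arrays CTH decreased by 0.81 more than CBS (two-sided exact permutation test over 11 arrays, p = 0.00433, the smallest that 462 divisions of the arrays can give, and adjusted p = 0.0173 over 8 enzyme pairs). All 6 mutDFNA5 arrays were below the wtDFNA5 range of this difference.

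The first 2 enzymes of serine synthesis were lower in mutDFNA5 and the last was not called. PHGDH, the dehydrogenase that opens the pathway, gave 13.78, 13.85, 13.93, 13.997 and 13.83 in wtDFNA5. The lowest, median and highest mutDFNA5 values were 13.59, 13.61 and 13.70. The groups were apart by a narrow gap, and the mean decreased by 0.24, from 13.88 ± 0.09 (SD, n = 5) to 13.63 ± 0.04 (SD, n = 6) (95% interval -0.39 to -0.10, limma, adjusted p = 0.0328). This call was the weakest of the 5: it was lost without wtDFNA5 replicate 2, 3, 4 or 5, without mutDFNA5 replicate 1, 3, 4 or 5 (adjusted p up to 0.0759), with normexp background correction (adjusted p = 0.0521), without the detection filter (adjusted p = 0.0878) and under median scaling (adjusted p = 0.373).

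PSAT1, the aminotransferase of the second step, gave 12.87, 13.13, 13.14, 13.23 and 13.16 in wtDFNA5, with replicate 1 below the others. In mutDFNA5 the lowest, median and highest values were 12.66, 12.73 and 12.77. All 6 mutDFNA5 arrays lay below wtDFNA5 replicate 1. The log2 change was -0.38 (95% interval -0.54 to -0.22), which is 1.30-fold lower (limma, adjusted p = 0.00296). The call held without each single array and was lost under median scaling (-0.29, adjusted p = 0.130). A second PSAT1 probe, ILMN_1712563, was not detected on any array and was not tested.

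PSPH, the phosphatase that releases serine, was read by a pair of probes, ILMN_1776105 and ILMN_2147114. Their log2 changes were -0.09 (95% interval -0.25 to 0.06, limma, adjusted p = 0.492) and -0.03 (95% interval -0.21 to 0.14), and both turned positive under median scaling, to 0.01 and 0.03. With ILMN_1776105 the wtDFNA5 arrays ranged from 10.05 to 10.18 and the mutDFNA5 arrays from 9.83 to 10.17. Within arrays PSAT1 decreased by 0.29 more than PSPH (exact permutation test, adjusted p = 0.0173) and PHGDH by 0.15 more (adjusted p = 0.0433). PSAT1 also decreased by 0.14 more than PHGDH (adjusted p = 0.0433). The difference between PSAT1 and PSPH kept its call without each single array. That between PHGDH and PSPH lost it in 9 of 11 tests without a single array and with normexp background correction (adjusted p = 0.0643), and that between PSAT1 and PHGDH in 8 of 11. Without a single array PHGDH minus PSPH stayed between -0.19 and -0.12 and PHGDH minus PSAT1 between 0.11 and 0.17. The smallest possible p is higher with fewer arrays, and its part in the lost calls was not tested.

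The enzymes that split serine were not called. SHMT2, the mitochondrial form, gave 12.90, 12.92, 13.12, 12.93 and 13.09 in wtDFNA5 and 12.83, 13.05 and 13.10 (lowest, median and highest) in mutDFNA5. Its log2 change was 0.03 (95% interval -0.13 to 0.18, limma, adjusted p = 0.871). SHMT1, the cytosolic form, had 3 tested probes. The brightest, ILMN_1811933, gave 9.82, 9.92, 9.98, 9.77 and 9.77 in wtDFNA5 and 9.53, 9.68 and 9.81 in mutDFNA5, with 5 of the 6 mutDFNA5 arrays below the wtDFNA5 range. Its log2 change was -0.17 (95% interval -0.33 to -0.02, adjusted p = 0.161), and the other probes gave -0.20 (adjusted p = 0.169) and 0.09 (adjusted p = 0.600). Within arrays SHMT1 was lower relative to SHMT2 by 0.20 (exact permutation test, adjusted p = 0.0208), but by 0.12 with the mean of the SHMT1 probes (adjusted p = 0.0544).

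MTHFD2, which processes the carbon unit in mitochondria and is known as an enzyme of proliferating cells, was the only one of the 10 enzymes called higher. It gave 11.68, 11.78, 11.60, 11.53 and 11.73 in wtDFNA5. In mutDFNA5 the lowest, median and highest values were 11.89, 11.98 and 12.04, all above the wtDFNA5 range. The mean rose by 0.31, from 11.67 ± 0.10 (SD, n = 5) to 11.98 ± 0.06 (SD, n = 6), or 1.24-fold (95% interval 0.16 to 0.46, limma, adjusted p = 0.0105). The call held without each single array and under every setting run (adjusted p up to 0.0438). Relative to SHMT2, the enzyme before it in mitochondria, MTHFD2 rose by 0.28 within arrays (exact permutation test, adjusted p = 0.0173).

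PCK2 had the second strongest fall of the 10 enzymes. Probe ILMN_1671791 gave 9.40, 9.57, 9.72, 9.54 and 9.40 in wtDFNA5. The mutDFNA5 values were 8.84 at the lowest, 8.93 at the median and 9.08 at the highest, all below the wtDFNA5 range. The mean decreased from 9.53 ± 0.13 (SD, n = 5) to 8.93 ± 0.10 (SD, n = 6), a log2 change of -0.60 (95% interval -0.76 to -0.43) or 1.51-fold lower (limma, adjusted p = 3.41e-05), and the call held in every setting run. A second probe, ILMN_1760649, gave 7.75, 7.98, 7.78, 7.86 and 8.15 in wtDFNA5 and 7.17, 7.53 and 7.95 in mutDFNA5, where it was detected on 4 of 6 arrays. It decreased by 0.38 (adjusted p = 0.0331), a call lost without wtDFNA5 replicate 2 or 5 and without mutDFNA5 replicate 1, 2 or 6 (adjusted p up to 0.0963), under median scaling (adjusted p = 0.128) and without the filter (adjusted p = 0.0503). With normexp background correction its log2 change was -0.89 (adjusted p = 0.0924), so its size is not exact. A further probe, ILMN_1802699, was detected on 2 wtDFNA5 arrays and 1 mutDFNA5 array and was not tested.

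ASNS, the gene with the element core printed above, had a pair of probes whose log2 changes differed in sign, and neither passed the test. The brighter probe, ILMN_1796417, gave 13.22, 12.995, 13.22, 13.37 and 13.14 in wtDFNA5 and 12.81, 12.93 and 13.11 in mutDFNA5, with 4 of the 6 mutDFNA5 arrays below the wtDFNA5 range. Its log2 change was -0.25 (95% interval -0.41 to -0.08) and it missed the threshold (limma, adjusted p = 0.0600). It was called with the filter set to detection on all 11 arrays (adjusted p = 0.0491), with a trended and robust prior (adjusted p = 0.0265), without wtDFNA5 replicate 2 (adjusted p = 0.0366) and without mutDFNA5 replicate 2 (adjusted p = 0.0499). The other probe, ILMN_2398107, gave 9.35, 9.58, 8.88, 9.13 and 9.71 in wtDFNA5 and 9.10, 9.60 and 10.04 in mutDFNA5, a log2 change of 0.26 (95% interval -0.07 to 0.59, adjusted p = 0.351). This second probe varied most among the tested probes of the 10 enzymes, with an SD of 0.34 in wtDFNA5 and 0.41 in mutDFNA5, and the mean of both probes gave a log2 change of 0.006. The difference between the probes did not pass its own test (exact permutation test, adjusted p = 0.242 over 9 probe pairs). PCK2 decreased by 0.35 more than ASNS within arrays (exact permutation test, adjusted p = 0.0173, and 0.50 with the mean of the probes), and all 6 mutDFNA5 arrays lay above the wtDFNA5 range of ASNS minus PCK2.

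**Figure D3:**
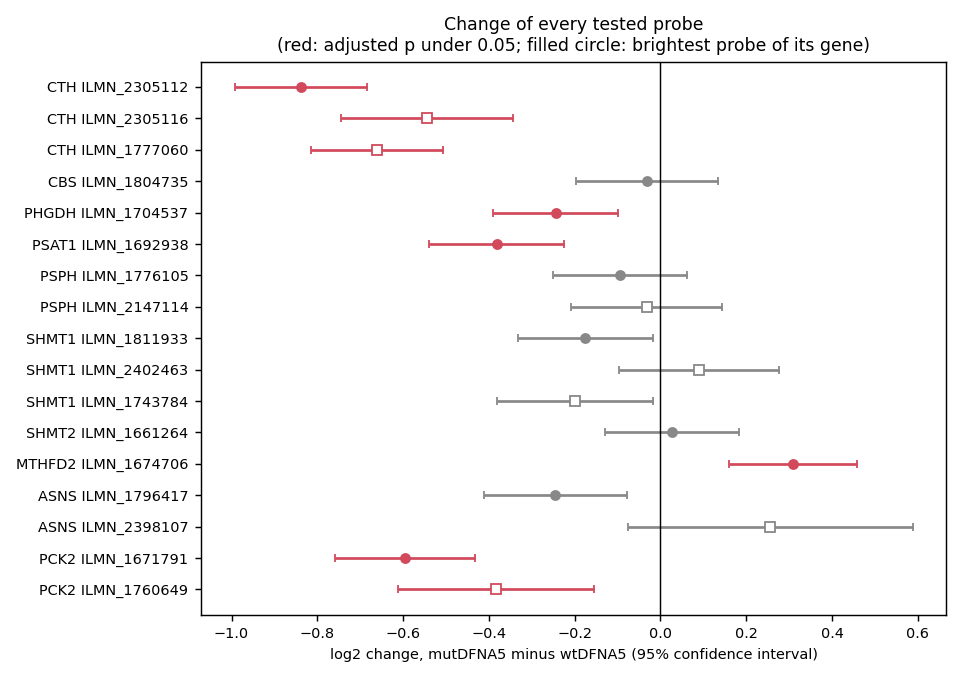
Log2 change (mutDFNA5 minus wtDFNA5) of the 17 tested probes with 95% confidence intervals, in red where the adjusted p is under 0.05 and with filled circles for the probe that stands for its gene. The 3 CTH probes, from -0.84 to -0.54, lie farthest left with PCK2 ILMN_1671791 (-0.60), MTHFD2 alone is red on the right (0.31), and neither ASNS probe is red.

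Of the 8 enzyme pairs compared within arrays, all had an adjusted p under 0.05. The pairs were chosen with earlier results of these data known. How many other gene pairs would pass the same test was not computed, so the count does not set these pairs apart. Of the 8 pairs 4 (CTH and CBS, PSAT1 and PSPH, SHMT2 and MTHFD2, ASNS and PCK2) kept the call without each single array and under every setting run. CTH decreased by 0.24 more than PCK2 (exact permutation test, adjusted p = 0.0433). This difference lost its call with normexp background correction (adjusted p = 0.182) and with the mean of the probes (adjusted p = 0.126). It also lost it in 10 of 11 tests without a single array (adjusted p up to 0.0952), all but that without wtDFNA5 replicate 4. In these tests it stayed between -0.30 and -0.18. Fewer arrays allow fewer divisions, so the smallest possible p rises. With all 11 arrays the unadjusted exact permutation p of CTH minus PCK2 was 0.0433, and the smallest possible was 0.00433. Why the call was lost was not tested. The count of pairs was 5 without wtDFNA5 replicate 2, 3 or 5 and without mutDFNA5 replicate 1, 2, 4 or 6, and 6 or 7 without each of the other arrays. A difference within an array shows unequal change of 2 transcripts and does not show which of them moved.

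**Figure D4:**
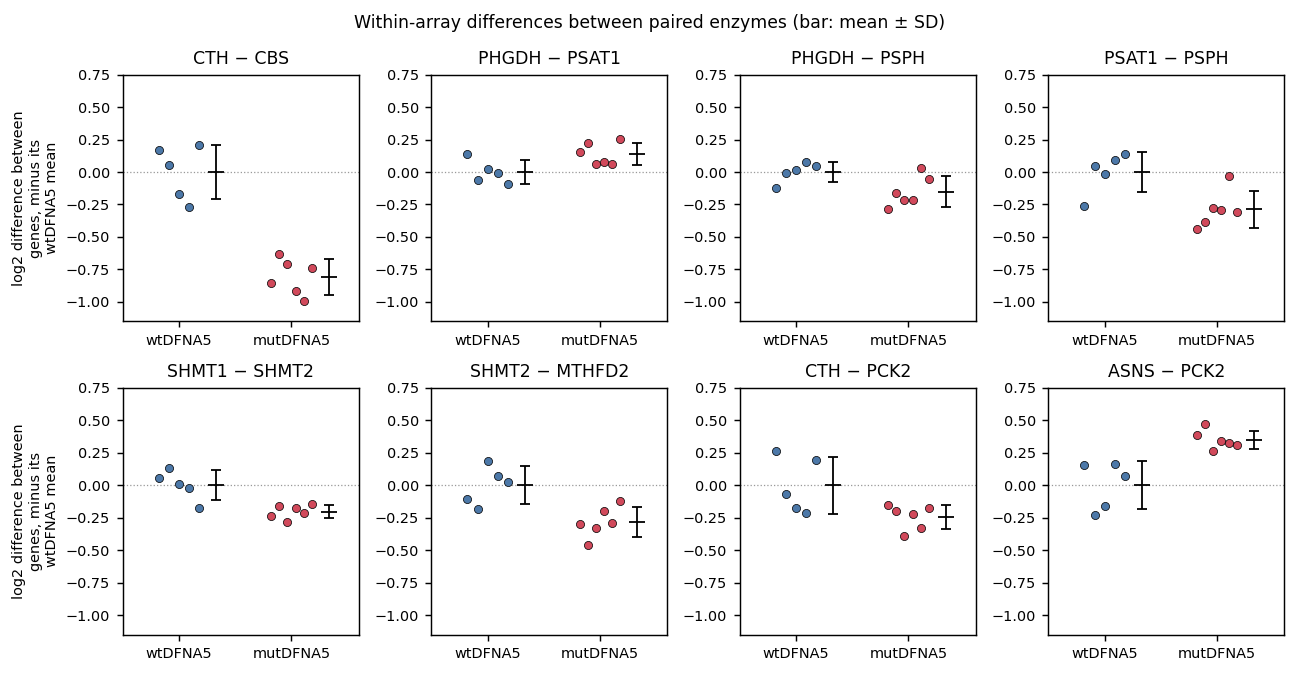
Difference in log2 signal between the enzymes of each pair on every array, with the wtDFNA5 mean of the pair set to 0 (wtDFNA5 blue, n = 5, mutDFNA5 red, n = 6, mean and SD beside the points). All panels share the same axis. CTH minus CBS lies lowest, with a mean shift of -0.81, and ASNS minus PCK2 lies above its wtDFNA5 range on all 6 mutDFNA5 arrays.

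Neighbouring steps of metabolism were read from lists of the pathways around the 10 enzymes. Of 68 other genes tested, 3 were lower, 3 were higher and 62 did not pass the test, with a median log2 change of -0.01 (1 probe per gene). The 8.82% called among these 68 is close to the 8.97% called among all genes, and the counts of the single lists are read against the same 8.97%. In the methionine cycle 2 of 12 genes rose and 0 fell with the brightest probe of each gene (limma, with 2 higher and 1 lower at an unadjusted p under 0.05). MAT2A, which makes S-adenosylmethionine, rose by 0.29 (limma, adjusted p = 0.0234), and MTAP, which salvages methionine, rose by 0.31 (adjusted p = 0.0139) with all 6 mutDFNA5 arrays above the wtDFNA5 range. The MTAP call held in every setting run, whereas that of MAT2A was lost in 3 of 11 fits without a single array and in 3 of 7 other settings. MRI1 was not called with its brightest probe (-0.15, limma, adjusted p = 0.276). Its probe ILMN_1806828 decreased by 0.37 (adjusted p = 0.0224, and 0.164 under median scaling), with 5 of 6 mutDFNA5 arrays below the wtDFNA5 range. A further MRI1 probe, ILMN_2410965, gave -0.23 (adjusted p = 0.0814).

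Around cysteine, glutathione and sulfide 2 of 13 genes fell and 0 rose with the brightest probe of each gene (limma, with 4 lower and 0 higher at an unadjusted p under 0.05). Dimmer probes went both ways. GSR ILMN_2127416 rose by 0.22 (limma, adjusted p = 0.105), with all 6 mutDFNA5 arrays above the wtDFNA5 range, whereas the brightest GSR probe gave -0.05. SUOX ILMN_2383455 gave -0.23 (adjusted p = 0.0508), with all 6 mutDFNA5 arrays below the wtDFNA5 range. Of the 13 changes with the brightest probes 11 were below 0, as were 4971 of those of all 9653 genes. The median was -0.13, against -0.01 over all genes, and -0.02 under median scaling, against 0.07 over all genes. TST, a mitochondrial sulfurtransferase, decreased by 0.31, from 11.74 ± 0.09 (SD, n = 5) to 11.42 ± 0.12 (SD, n = 6), with all 6 mutDFNA5 arrays below the wtDFNA5 range (adjusted p = 0.0145). CSAD, which takes cysteine sulfinate towards taurine, decreased by 0.29 (adjusted p = 0.0295), a call lost in 6 of 11 fits without a single array. Both calls were lost under median scaling (adjusted p = 0.332 for TST and 0.224 for CSAD). The cystine transporter gene SLC7A11 was near the detection level, with means of 7.46 and 7.44.

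Serine and glycine genes held 1 call in 8 (limma, with 2 lower and 1 higher at an unadjusted p under 0.05). SFXN1, the mitochondrial serine carrier, rose by 0.31 (adjusted p = 0.0468). Its call was lost in 10 of 11 fits without a single array. The lower genes were not called. They were GCSH (-0.23, adjusted p = 0.0658), with all 6 mutDFNA5 arrays below the wtDFNA5 range, and SRR (-0.21, adjusted p = 0.110). None of 10 further folate genes was called by limma at an adjusted p under 0.05. With the brightest probe of each gene, only MTHFD1, a cytosolic folate enzyme, had an unadjusted p under 0.05 in that list. Its log2 change was 0.17 (unadjusted p = 0.0395 from limma across all probes, adjusted p = 0.189). Dimmer probes of other folate genes had a lower p. GART ILMN_1793220 rose by 0.33 (limma, unadjusted p = 0.00522, adjusted p = 0.0571), with all 6 mutDFNA5 arrays above the wtDFNA5 range. GGH ILMN_2195914 rose by 0.27 (unadjusted p = 0.0145, adjusted p = 0.106). The brightest probes of GART and GGH gave 0.03 and 0.09. Around asparagine, aspartate, glutamine and proline 0 of 12 genes were called. With the brightest probes 2 had an unadjusted p under 0.05, of which NIT2 came nearest (-0.25, unadjusted p = 0.00592 from limma across all probes, adjusted p = 0.0613). A dimmer ASS1 probe, ILMN_2395451, gave 0.21 (limma, unadjusted p = 0.0460, adjusted p = 0.206). Around phosphoenolpyruvate and pyruvate 1 of 13 genes fell (limma, with 3 lower and 0 higher at an unadjusted p under 0.05), namely MPC2, a subunit of the mitochondrial pyruvate carrier, by 0.38 (adjusted p = 0.00663, and 0.223 under median scaling). PCK1, the cytosolic counterpart of PCK2, was not detected on any array.

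Known regulators of these enzymes were read as well. ATF4 had 3 tested probes, and whether they changed by unequal amounts was not tested. The brightest, ILMN_1672128, went from 14.61 ± 0.09 (SD, n = 5) to 14.73 ± 0.11 (SD, n = 6) and was not called (log2 change 0.12, limma, adjusted p = 0.381). Probe ILMN_2358457 rose by 0.34 (adjusted p = 0.0309), a call lost in 5 of 11 fits without a single array and in 4 of 7 other settings, and ILMN_1783394 gave -0.17 (adjusted p = 0.175). Of the genes that ATF4 is known to induce, DDIT3 (CHOP) decreased by 0.45, from 8.86 ± 0.13 (SD, n = 5) to 8.41 ± 0.20 (SD, n = 6), with all 6 mutDFNA5 arrays below the wtDFNA5 range (adjusted p = 0.00397). TRIB3, a pseudokinase, decreased by 0.29 (adjusted p = 0.0234). Median scaling ended both calls (adjusted p = 0.0701 for DDIT3 and 0.418 for TRIB3), and that of TRIB3 was also lost without wtDFNA5 replicate 1 or 2 and without the filter (adjusted p = 0.0519). DDIT3 and TRIB3 do not stand for all genes that ATF4 is known to induce. ATF4 is known to induce several of the 10 enzymes, and these went both ways. CTH (-0.84), PCK2 (-0.60), PSAT1 (-0.38) and PHGDH (-0.24) were called lower with their brightest probes. MTHFD2 rose by 0.31 (limma, adjusted p = 0.0105), the ASNS probes differed in sign, and CBS, PSPH, SHMT1 and SHMT2 were not called. CHAC1, read by a dim probe, gave -0.22 (adjusted p = 0.189). Genes induced by ATF4 were not tested as a set.

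MYC, which is known to activate serine and folate genes, rose by 0.50, from 10.48 ± 0.37 (SD, n = 5) to 10.98 ± 0.21 (SD, n = 6) (adjusted p = 0.0184, and 0.0885 with normexp background correction), with 4 of 6 mutDFNA5 arrays above the wtDFNA5 range. Other bZIP factors were not called. ATF5 gave 0.26 (adjusted p = 0.111), with 4 of 6 mutDFNA5 arrays above the wtDFNA5 range. CEBPB gave 0.07 and CEBPG -0.06, the last of which was 0.06 under median scaling. NFE2L2 (NRF2), a regulator of glutathione genes, gave 0.05, and its inhibitor KEAP1 gave -0.15. Neither was called.

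**Figure D5:**
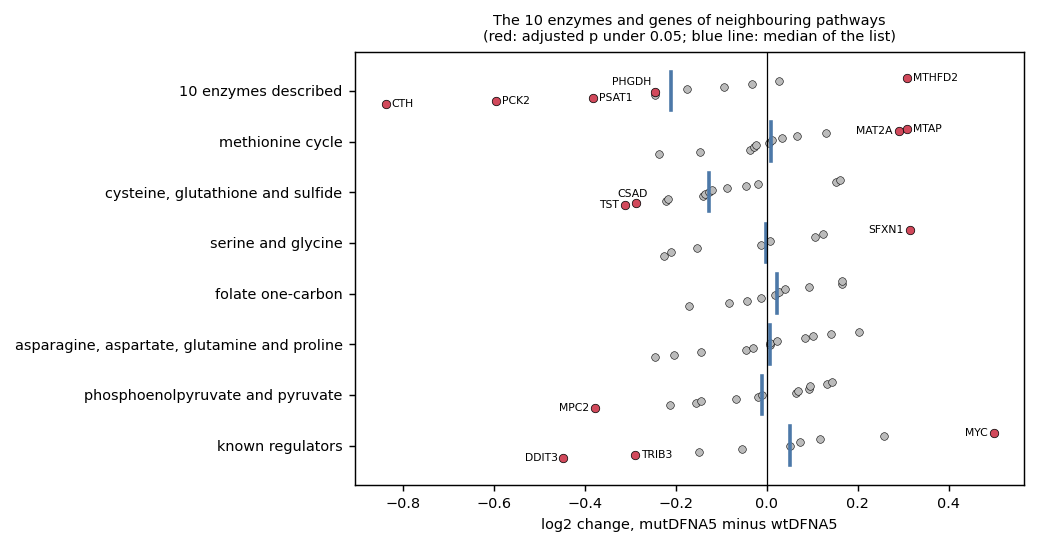
Log2 change (mutDFNA5 minus wtDFNA5) of the 10 enzymes, of 68 other tested genes in 6 lists of neighbouring pathways and of 9 regulators, 1 point per gene, red where the adjusted p is under 0.05, with the median of each list as a blue line. The median of the 10 enzymes is -0.21, and those of the neighbouring lists lie between -0.13 and 0.02.

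Variation among the arrays of the same group was read as well. Deviations of each array from its group mean were correlated over the 11 arrays, which share their normalization, and these values are a description. The genes named below are the extremes of a search among the 9653 genes tested. How high an r such a search reaches by chance was not computed, so the values do not show that genes vary together. SUMF1 (r = 0.93), MTMR6 (0.92), DIPK2A (0.91), UTP3 (0.91) and PNMA8A (0.90) followed CTH most closely among genes outside the 10 enzymes. None of the 5 was called lower: their log2 changes lay between -0.05 and 0.25, and MTMR6 was called higher (limma, adjusted p = 0.0474). Among the enzymes r ranged from -0.72 for PHGDH and MTHFD2 to 0.61 for SHMT1 and SHMT2. CTH and PSAT1, which both fell in mutDFNA5, had an r of -0.71 within groups, which rests largely on wtDFNA5 replicates 1 and 4. On replicate 1 CTH had its highest and PSAT1 its lowest wtDFNA5 value (10.94 and 12.87). On replicate 4 CTH had its lowest and PSAT1 its highest (10.60 and 13.235). On wtDFNA5 replicates 3 and 5 both genes lay above their group means.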

How the data were processed

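RNA of 11 transfected HEK293T samples (5 wtDFNA5, 6 mutDFNA5) was read on 1 beadchip array each, and groups came from the labels alone. The authors deposited log2 signals per probe that were not normalized between arrays, with a detection p-value for each, and a second deposited table of log2 values after quantile normalization. Beadarray, quality control, quantile normalization and limma were used per the methods of the study, which state no background step. Version 3.24.4 of limma stands in the submitters' processing notes. Methods of the study name an HT12v3 chip, whereas the probe annotation used here is for a later version, with symbols updated through RefSeq: 27916 of 42000 probes carried a single gene symbol, 7 carried several and 14077 were absent from it. Probe sequences and positions were not used here, so transcripts read by more than 1 probe may be told apart only by their annotation.

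Signals were quantile normalized again with limma 3.58.1 in R 4.3.3 and differed from the authors' table by at most 0.019. Probes with a detection p under 0.01 on at least 5 of 11 arrays were tested (14542), with limma's moderated test, two-sided, Benjamini-Hochberg adjustment over all probes tested and 95% intervals; the probe with the highest mean stood for its gene. With no background subtracted, log2 changes of dim probes are understated. Differences within arrays used two-sided exact permutation tests over 462 divisions of the arrays, adjusted over 9 probe pairs and 8 enzyme pairs. The script was tested on simulated data. Named genes were the 10 enzymes with all probes, genes called in each neighbouring list (up to 6) or else that with the smallest p, all tested regulators, and the 5 genes most like CTH. Some further neighbouring genes, MRI1 among them, were named with their values known. The 10 enzymes, the lists and the tests were chosen with earlier results of these data known. Alternatives were normexp background correction (offset 16), median scaling, the authors' table, no filter, detection on all 11 arrays, a trended and robust prior, the replicate number as a block, the mean of all probes of a gene, and leaving out each array. Slides and scan dates are not given in the sources used here, so no batch was tested. The number of arrays limits the precision.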

Additional observations from a re-analysis of the deposited data

Results flagged for a closer look

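In 3 of the 34 groups of arrays examined (17 probes in 2 groups each) 1 array stood apart from the rest by a gap that made up most of the range of its group. Chance alone gives such a gap in about 1 of 20 groups. For CTH probe ILMN_2305112, mutDFNA5 replicate 2 had a log2 signal of 10.05 (10.049), while the other 5 mutDFNA5 arrays lay between 9.93 and 9.97. For PSAT1, wtDFNA5 replicate 1 had 12.87 (12.868), below the 13.13 to 13.23 of the other wtDFNA5 arrays. For SHMT2, mutDFNA5 replicate 2 had 12.83 (12.831), below the 13.02 to 13.10 of the others. Without these arrays CTH and PSAT1 were still called lower and SHMT2 was still not called. Causes were not tested.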

How the results depend on the processing

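With their brightest probes CTH, PSAT1, PCK2 and MTHFD2 kept their direction in every alternative run, and all but PSAT1 their call. Median scaling left 2 enzymes called lower in place of 4, and over all genes 54 lower and 270 higher in place of 475 and 391. Without a filter 299 genes were lower. The replicate number as a block gave 298 lower and 259 higher and ended the calls of PHGDH (adjusted p = 0.0807), MAT2A (0.0561), SFXN1 (0.0828), TRIB3 (0.0594) and ATF4 ILMN_2358457 (0.0955); same-numbered arrays did not deviate together (correlations -0.04, -0.06, -0.06, 0.11 and 0.006, with 1 of 5 matching its own number best), so the numbers do not pair the samples. Leaving out 1 array gave 3 to 5 enzymes lower, 1 higher, 341 to 434 genes lower, 298 to 383 higher and 5 to 7 enzyme pairs. Signs turned only for changes that were not called: median scaling gave 0.0778 for CBS, 0.0114 and 0.0283 for PSPH and 0.0634 for CEBPG, the block 0.0103 for PSPH ILMN_2147114, the mean of probes 0.00567 for ASNS, and normexp 0.136 and 0.152 for the differences between probes of CTH and of PCK2. Without 1 array the difference between SHMT1 ILMN_1811933 and ILMN_1743784 ranged from -0.0194 to 0.0965, that of the PSPH probes from -0.140 to 0.000122, CBS from -0.0675 to 0.0159 and PSPH ILMN_2147114 from -0.0783 to 0.0248. The mean of probes for enzyme pairs, and all settings for neighbouring genes, were chosen after seeing the data. Causes were not tested. The dim probes of PCK2 and the near-background SLC7A11 limit what their signals show.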
